A study of Mus musculus with 4 samples.

Results

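Neutrophils are short-lived granulocytes that leave the bone marrow, circulate, and enter the kidney through its vessels. They are chosen here from whole-kidney single-cell RNA-seq of male C3H mice. A barcode was selected on its own counts: 200 to 5000 detected genes, under 50% mitochondrial UMIs (unique molecular identifiers, 1 per captured transcript), at least 10 UMIs and at least 50 UMIs per 10000 of S100a8 plus S100a9, and at least 1 UMI of Csf3r, Retnlg or G0s2. These 5 genes are called rule genes. The rule found 201 neutrophils among 34789 barcodes that met the limits on genes and mitochondrial UMIs, hereafter kept barcodes, of 58660 deposited, or 0.578%. The study asks how loss of the kidney glucose cotransporter SGLT2 changes the response to metabolic stress, and it crossed genotype with diet. WT mice and Sweet Pee (SP) mice, which are homozygous for a missense mutation of Slc5a2, the SGLT2 gene, were fed a normal diet (ND) or a high-fat diet (HFD, 60% of calories from fat). Feeding began at 10 weeks of age and lasted 8 weeks, so that the kidneys of all 4 groups (WT-ND, WT-HFD, SP-ND, SP-HFD) were taken at 18 weeks. Every group shares the C3H background, which in the HeJ substrain named by the study carries a Tlr4 allele with a poor response to endotoxin. Each group is 1 library of dissociated kidney after red cell lysis, and the sources used here do not say how many animals it holds. With 1 library per group no difference was tested and no p-value is given: all intervals are 95% intervals of counting error only, and they hold nothing of the spread between animals. Those of gene levels and ratios take each UMI as independent, so they also leave out the spread between barcodes.

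In mature neutrophils the S100a8/S100a9 protein pair (calprotectin) is the main cytosolic protein. Granule proteins are made in order during marrow development, with the primary granule enzymes first, the specific granule proteins next and the gelatinase granule proteins last, so that their transcripts mark the stage a cell has reached. Neutrophils follow CXCR2 ligands into tissue, are retained in or returned to the marrow through CXCR4, depend on G-CSF signalling through CSF3R, and release interleukin-1β and the chemokine CXCL2, itself a CXCR2 ligand, when activated.

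In WT kidneys neutrophils made up 0.534% of kept barcodes on ND (58 of 10869, Clopper-Pearson interval 0.405 to 0.689%) and 0.392% on HFD (38 of 9700, 0.277 to 0.537%). In SP kidneys they made up 0.844% on ND (57 of 6754, 0.640 to 1.09%) and 0.643% on HFD (48 of 7466, 0.474 to 0.852%). The share was lower on HFD than on ND in each genotype and higher in SP than in WT on each diet, but the diet intervals overlap in both genotypes. When every barcode with RNA of another type was left out, tubule RNA included, which kept 7, 8, 18 and 7 neutrophils, the WT order turned (0.0644% on ND and 0.0825% on HFD). Only the WT-HFD and SP-ND intervals lie wholly apart. Shallow barcodes entered the WT difference: 20 of the 58 WT-ND neutrophils had under 1000 UMIs, against 1 of 38 in WT-HFD, 6 of 57 in SP-ND and 3 of 48 in SP-HFD. Among barcodes with at least 1000 UMIs the shares were 0.429 and 0.405% in WT and 0.844 and 0.664% in SP. Against macrophages with C1q transcripts (at least 5 UMIs of C1qa, C1qb and C1qc and at least 10 per 10000), a denominator without tubule cells, there were 0.322 neutrophils per macrophage in WT-ND (58 to 180, interval 0.235 to 0.435) and 0.337 in SP-ND (57 to 169, 0.245 to 0.458). The ratio was 0.184 in WT-HFD (38 to 207, 0.126 to 0.260) and 0.170 in SP-HFD (48 to 282, 0.123 to 0.232). The ratio was lower on HFD in both genotypes, but without mixed barcodes the WT libraries were level, at 0.0389 on ND and 0.0386 on HFD, and with at least 1000 UMIs they were at 0.220 and 0.182, beside 0.307 and 0.162 in SP. The SP-HFD interval lies wholly below that of SP-ND, while the WT intervals overlap narrowly. Kept macrophages were also more numerous on HFD, at 207 against 180 in WT and 282 against 169 in SP. Digestion of whole kidney, the yield of each library and the cell limits all enter these shares, and their part was not tested.

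**Figure D1:**
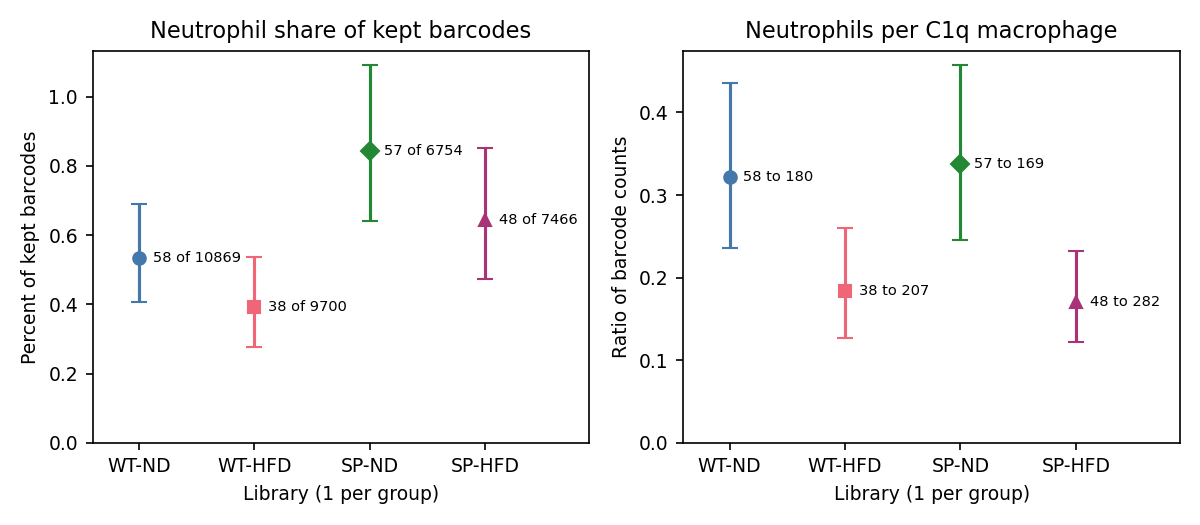
Neutrophil share of kept barcodes in percent (left) and neutrophils per C1q macrophage (right) in the 4 libraries, with 95% intervals of counting error as bars and the barcode counts beside the points. The 2 HFD libraries (0.184 and 0.170 per macrophage) lie below the 2 ND libraries (0.322 and 0.337).

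The libraries hold 93142028, 115117649, 111617794 and 90728590 UMIs, where sets of 4 values here and below give WT before SP and, within each, ND before HFD. Neutrophils were shallow barcodes: their medians were 1313, 1984, 1579 and 1396 UMIs, against 3831, 4862, 5697 and 4870 UMIs in all kept barcodes. Median detected genes were 601, 795, 699 and 595.5, and median mitochondrial shares were 7.56, 4.06, 8.44 and 5.82%. WT-HFD neutrophils had the highest median depth. Between 12 and 43 kept barcodes were shared by a pair of libraries, and 0 of the neutrophil barcodes were. Slc5a2, the mutated gene, was at 162 CPM (UMIs scaled to a total of 1000000) on ND and 99.6 on HFD over the kept barcodes of WT, and at 22.3 and 23.3 over those of SP. A missense allele can leave its transcript in place, so these levels do not check the genotype label, but both SP libraries were lower than both WT libraries.

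Values used by the rule are a description. S100a8 plus S100a9 came to a median of 517 UMIs per 10000 in WT-ND (lowest 51.0, highest 3839) and 732 in WT-HFD (58.3 to 3272). The SP medians were 581 on ND (61.8 to 3465) and 624 on HFD (70.9 to 2391). These barcodes held 92.8, 90.6, 94.1 and 95.5% of all S100a8 and S100a9 UMIs of their libraries. Just inside the limit of 50 per 10000, 8 members had under 100, and just outside 1 kept barcode with enough UMIs had 25 to 50. Of the members, 17 had 10 to 19 of these UMIs, and 8 kept barcodes that otherwise qualified had 5 to 9. A single UMI of Csf3r, Retnlg and G0s2 together was held by 8 members, some of them also counted above, and 1 barcode was left outside by having none. A further 8 barcodes met the marker limits but had 50% or more mitochondrial UMIs.

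The label was checked on other markers. Of 12 neutrophil genes that the rule did not use, 10 had enough UMIs for a ratio to macrophages of the same library in all 4 libraries. All 10 were higher in all 4, beside 32.1% of all genes with such a ratio. Against monocyte-type barcodes (at most 1 C1q UMI and at least 5 UMIs of Ly6c2, Ccr2, Plac8, Ms4a4c and Ms4a6c) 10 of 10 were higher, beside 26.7% of all genes. Cxcr2 stood 7.62 to 10.10 above macrophages on the log2 scale, Mxd1, a MYC antagonist of terminal differentiation, 5.57 to 6.58, and Il1r2, the decoy interleukin-1 receptor, 5.91 to 8.08. Since the cells were chosen by their expression, such differences describe them and test nothing. Markers of eosinophils, mast cells and basophils (10 genes) came to 3 UMIs in SP-ND and were at 0 in the other libraries, with Epx, Prg2, Cpa3 and Mcpt8 at 0 in every library.

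Several barcodes held RNA of another cell type as well as neutrophil RNA. The deepest one in SP-HFD had 18605 UMIs, of which 62.7% came from plasma cell genes, with 10146 of Igkc alone. The next in SP-HFD (14538 UMIs) and the deepest in WT-HFD (15614 UMIs) held podocyte transcripts. The deepest in SP-ND (8277 UMIs) held thick ascending limb transcripts, 1 in WT-ND (4612 UMIs) led with macrophage and antigen presentation genes such as Cd74, and 1 in SP-ND (5449 UMIs) held 258 UMIs of renin (Ren1). Pooled sums follow such barcodes. Results are therefore given over all 201 neutrophils and again over the 172 that remained (49, 31, 48 and 44) once barcodes with 3 or more genes and 20 or more UMIs per 10000 of another cell type's marker list were removed, the proximal tubule list apart, along with barcodes of more than 3 times their library's median depth. The 29 removed carried 37.8, 46.6, 35.4 and 41.4% of the neutrophil UMIs of the 4 libraries. This choice was made after seeing the counts. Barcodes marked by a simulated-doublet score were not removed for it, and a marked WT-HFD barcode of 5761 UMIs (47.4% mitochondrial) stayed. The 172 are called single-type here for the marker and depth limits alone. A log2 ratio is given for them first, then, in parentheses, its interval and its value over all 201.

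**Figure D2:**
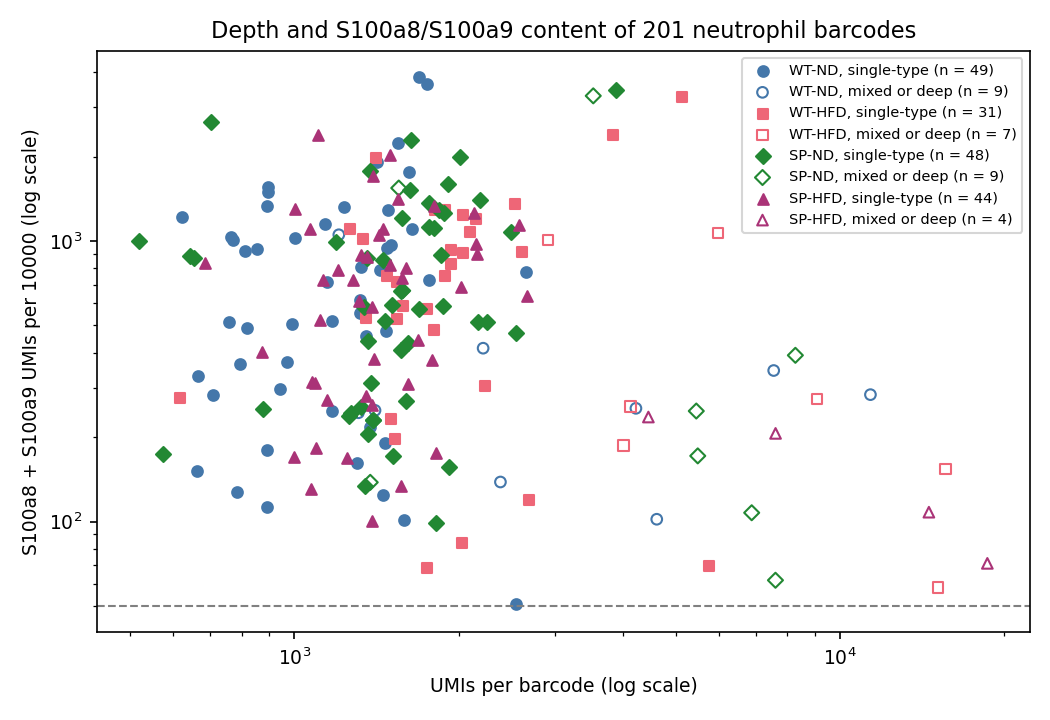
Each of the 201 neutrophil barcodes by its UMIs (x, log scale) and its S100a8 plus S100a9 UMIs per 10000 (y, log scale), with library by shape and colour. Open symbols are the 29 mixed or deep barcodes and the dashed line is the limit of 50 per 10000. The deepest barcode of each library is an open symbol, and the deepest of all, in SP-HFD, has 18605 UMIs.

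Proximal tubule RNA was present throughout and was not grounds for removal, because B cells and macrophages held it too. Its 14-gene list came to 190, 93.6, 43.7 and 71.8 UMIs per 10000 in single-type neutrophils, beside 292, 247, 96.9 and 126 in the whole libraries and 187, 110, 30.6 and 45.8 in B cells. Kap, an androgen-regulated tubule gene and the most abundant of the list, was at 14664 CPM on ND and 5965 on HFD in WT and 2285 and 4793 in SP. WT-ND was high and SP-ND low in neutrophils, B cells and whole libraries alike. The ratio of Kap in SP-ND over WT-ND, -2.68 (-2.92 to -2.45, -2.83 over all 201), thus stood beside tubule RNA that differed the same way in these other cells, whose part in the ratios of tubule genes was not tested.

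Transcripts of the early marrow stages were absent at this depth. None of the 8 primary granule genes (Mpo, Elane, Prtn3, Ctsg, Ms4a3, Prss57, Bpi and Cst7) had a UMI in any of the 201 barcodes, where 3 counts, the limit that a count of 0 allows, would be 31.2, 24.6, 25.4 and 27.5 CPM. Cell cycle genes were nearly as scarce: Mki67, Cdk1, Birc5, Ccna2 and Ccnb1 were at 0 in the single-type barcodes of all 4 libraries, and Hmgb2, a chromatin protein also made by resting myeloid cells, was the one abundant member at 1439.6 CPM on ND and 1122 on HFD in WT and 1537 and 1655 in SP. Genes of the gelatinase granule list, with Hp, Pglyrp1, Mmp9 and Mmp8 the most abundant, were detected widely as a set. Single-type neutrophils deep enough to be thinned to 1000 UMIs numbered 29, 30, 42 and 41. After thinning, at least 1 UMI of this list was found in 93.1, 93.3, 92.9 and 90.2% of them. The specific granule list reached 27.6, 23.3, 42.9 and 31.7%. Mmp9 (gelatinase B) alone, without thinning, was in 38.8, 67.7, 54.2 and 47.7% of all single-type neutrophils. In WT-HFD most Mmp8 UMIs lay in 2 barcodes with specific granule transcripts, as given below. Whether the gelatinase list marks the last stage was not tested, so these shares do not place the cells at a stage.

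Specific granule transcripts set 4 barcodes apart. Camp (cathelicidin), Ngp (neutrophilic granule protein) and Ltf (lactoferrin) summed to 355 and 137 UMIs in 2 of the 38 WT-HFD neutrophils and to 168 and 12 in 2 of the 57 SP-ND neutrophils. No WT-ND or SP-HFD neutrophil had over 3. S100a8 plus S100a9 came to 2898 UMIs per 10000 over the WT-HFD pair and 3383 over the SP-ND pair, with 252 and 115 UMIs of Retnlg and 42 and 16 of Mmp8 (neutrophil collagenase). Il1b and Cxcl2 were at 0 in all 4, whereas Il1b was in 57 of the 58 WT-ND neutrophils. The SP-ND barcode with 168 is among the 29 removed, for genes of the monocyte list, so that the single-type SP-ND set holds only the one with 12.

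The pooled specific granule levels came mostly from those barcodes. Over all neutrophils Camp had 0 UMIs on ND and 200 on HFD in WT and 65 and 0 in SP, which makes it at least 52.5-fold higher in WT-HFD than in WT-ND and at least 20.1-fold lower in SP-HFD than in SP-ND, against a floor of 3 counts per library. The diet difference thus had opposite directions in the 2 genotypes. Ngp followed (4, 187, 91 and 0 UMIs), as did Ltf (0, 105, 25 and 1 UMIs). Without the mixed or deep barcodes the WT difference stayed (Camp at least 61.2-fold), but Camp had 2 UMIs in SP-ND and no fold can be given there. Camp, Ngp and Ltf reached the minimum for a comparison (50 UMIs over both libraries) only through the library that holds such barcodes, so that a compared member had to differ, and no count over the 8 genes of the specific granule list is given. Results are also given without the 4 barcodes with 10 or more UMIs of Camp, Ngp and Ltf (specific granule barcodes), a setting added after seeing the data. Of the 8 genes, Lcn2 alone was abundant beyond them, and it is also a marker outside the rule.

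**Figure D3:**
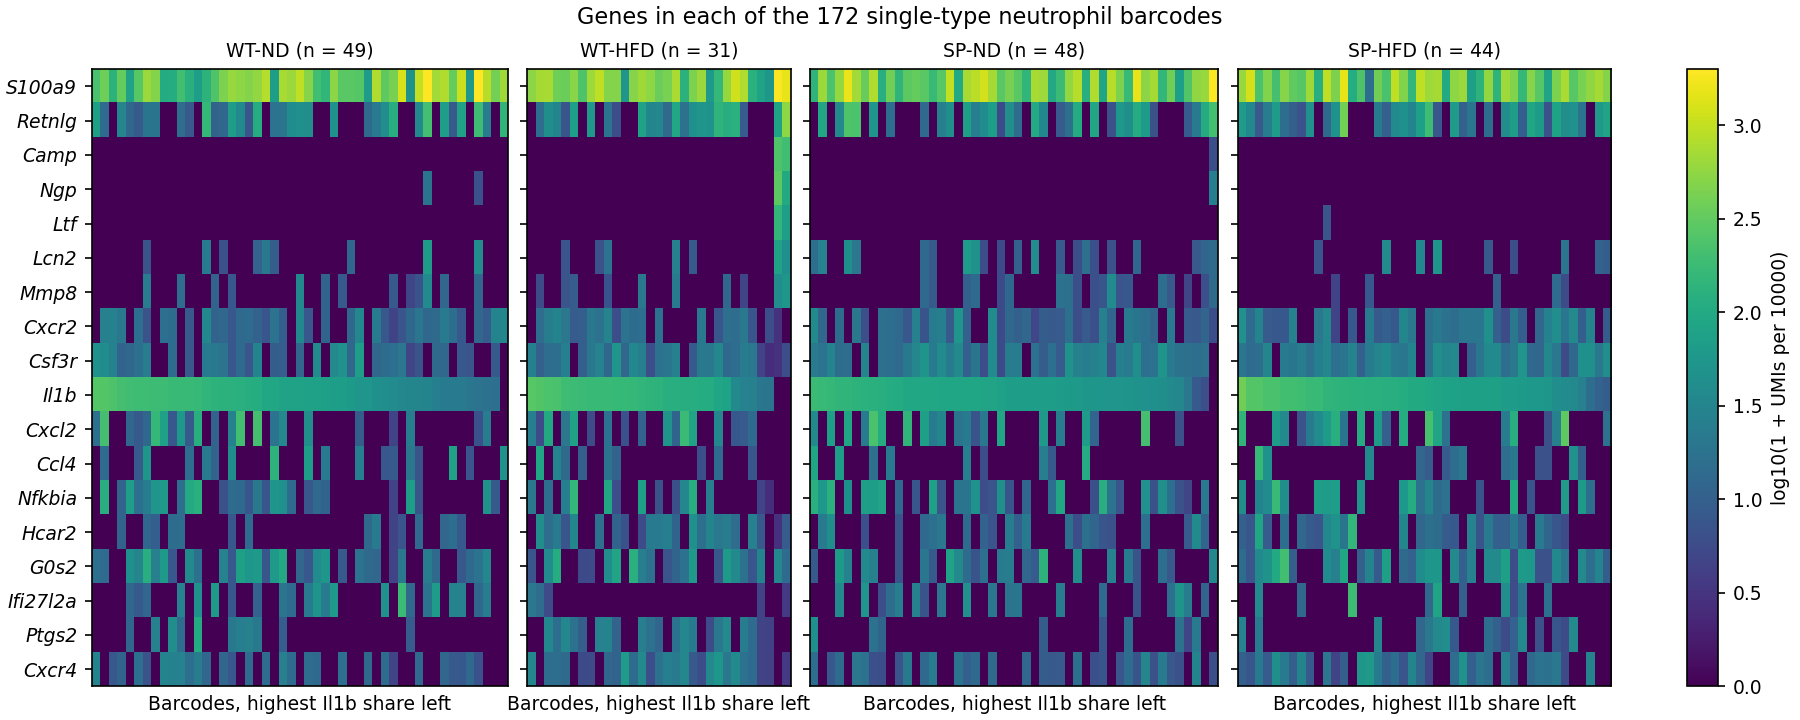
Level of 18 genes (rows) in each of the 172 single-type neutrophils (columns, ordered within a library from the highest to the lowest Il1b share), as log10 of 1 plus UMIs per 10000. Il1b runs through nearly every barcode, and Camp, Ngp and Ltf light up at the right edge of WT-HFD, where Il1b is at 0.

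Mmp8 and Lcn2 (lipocalin-2, a siderophore-binding protein) were found in more barcodes, but in WT-HFD the 2 specific granule barcodes held most of their UMIs, 42 of 58 for Mmp8 and 57 of 68 for Lcn2. Mmp8 was at 418 CPM on ND and 892 on HFD in WT and 459.7 and 93.7 in SP, with UMIs in 13, 10, 19 and 5 single-type barcodes. It was lower in SP-HFD than in every other library, with log2 ratios of -3.25 (-4.75 to -2.04, -2.72 over all 201) against WT-HFD and -2.29 (-3.84 to -1.03, -2.31 over all 201) against SP-ND. Leaving out the specific granule barcodes gave -1.61 and -2.15, with 6 UMIs in SP-HFD, 16 in WT-HFD and 30 in SP-ND, too few for a call, while Mmp8 in WT-HFD then lay below WT-ND, at 285 against 418 CPM. Lcn2 was at 469 CPM on ND and 1045 on HFD in WT and 867 and 422 in SP, with the ND and HFD libraries in opposite order in WT and SP. Its diet ratio was 1.16 (0.50 to 1.85, 1.22 over all 201) in WT and -1.04 (-1.74 to -0.37, -1.68 over all 201) in SP. The WT direction rested on the specific granule pair: without such barcodes WT-HFD was at 196 CPM against 469 in WT-ND, and the ratio turned to -1.26 (-2.41 to -0.21), on 11 and 28 UMIs, too few for a call, beside -1.0 in SP. The SP ratio in turn was 1.31 when every mixed barcode was left out of the 201, on 10 and 13 UMIs. Mmp9 (gelatinase B), at 368 CPM on ND and 861 on HFD in WT and 617 and 499.6 in SP, was higher in WT-HFD than in WT-ND by 1.23 (0.49 to 2.01, 0.83 over all 201), and by 0.80 without the specific granule barcodes. Of the 8 gelatinase granule genes, 5 could be compared for diet in WT, with 3 past 2-fold higher (Mmp9, Itgam and Mmp8) and 0 lower (median 1.09), where 7.14% of all genes compared were higher. Without the specific granule barcodes there were 0 higher and 1 lower of 3 (Hp, median -0.42), and over all 201 0 higher and 1 lower of 6 (Hp), where 4.07 and 7.73% of all genes were lower. Leaving out the 1 WT-HFD barcode with the most UMIs of each gene put Mmp8, Mmp9 and Itgam at 0.53, 0.93 and 0.95 and Lcn2 at -0.0044 for diet in WT. In the single-type set 0 of 4 were past 2-fold for diet in SP, where Mmp8 had too few UMIs to count, and 0 of 4 for genotype on ND. Over all 201 there were 1 of 6 lower for diet in SP (Mmp8, list median -0.79, with 8.50% of all genes lower) and 0 of 6 for genotype on ND. For genotype on HFD 1 of 6 was lower in SP-HFD in either set (Mmp8), where 2.49% of all genes were lower in the single-type set and 5.84% over all 201.

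Il1b, encoding interleukin-1β, was the most abundant cytokine transcript in every library at 9223 CPM on ND and 10654 on HFD in WT and 7394 and 11679 in SP. It was detected after thinning to 1000 UMIs in 97.4% of ND and 89.2% of HFD neutrophils in WT (37 of 38 and 33 of 37) and in 86.3 and 95.6% in SP (44 of 51 and 43 of 45), against 0% of T cells in each library and at most 3.17% of B cells, which gauge RNA from outside the cell. Unthinned, it was in 57 of 58, 36 of 38, 55 of 57 and 48 of 48. Macrophages had it in 39.6 to 54.3%. Between libraries the log2 ratio of Il1b was 0.21 (0.04 to 0.37, 0.13 over all 201) for diet in WT, 0.66 (0.50 to 0.82, 0.39 over all 201) for diet in SP, and 0.13 (-0.02 to 0.28, -0.04 over all 201) for genotype on HFD, all within 2-fold.

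Cxcl2 varied more, and its highest level was in SP-HFD, at 2193 CPM on ND and 1353 on HFD in WT and 2561 and 4793 in SP. SP-HFD exceeded WT-HFD by 1.82 (1.48 to 2.18, 1.53 over all 201), past 2-fold, while its ratio to SP-ND (0.90, interval 0.64 to 1.17, 0.47 over all 201) and the WT diet ratio (-0.70, interval -1.10 to -0.30, -0.60 over all 201) stayed within 2-fold and had opposite signs. Cxcl2 was found in 22 of 44 single-type barcodes in SP-HFD and in 17 of 31 in WT-HFD, with 307 and 88 UMIs. A single barcode held 20.8% of the SP-HFD UMIs. The 19 matched cytokine and chemokine genes otherwise showed Ccl6 at 985 to 1343 CPM over the 4 libraries, Ccl4 highest in WT-ND at 1289 CPM on ND and 553 on HFD in WT and 696 and 874 in SP, with a WT diet ratio of -1.22 (-1.83 to -0.63, -0.75 over all 201), and Il6, Ccl2 and Cxcl3 at 0 in all 4 single-type sets. In the list 0 of 4 were past 2-fold higher and 1 lower (Ccl4) for diet in WT, beside 7.14% higher and 4.42% lower of all genes compared, whereas over all 201 there were 1 of 6 higher (Vegfa, 57.5% of its WT-HFD UMIs in 1 barcode) and 0 lower, with 6.47% higher and 7.73% lower of all genes. Without the WT-ND barcode that held 16 of 77 UMIs Ccl4 was at -0.91, within 2-fold. Either set gave 0 of 5 in either direction for diet in SP and 0 of 4 for genotype on ND. For genotype on HFD Cxcl2 was the 1 higher, of 6 in the single-type set and of 7 over all 201, where 2.49 and 2.30% of all genes were higher.

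Some inhibitors and feedback genes of NF-κB, and the stress gene Ppp1r15a, stood beside Cxcl2 on HFD. Nfkbia, which encodes IκBα and is induced by NF-κB, was at 1892 CPM on ND and 1337 on HFD in WT and 2443 and 2685 in SP, higher in SP-HFD than in WT-HFD by 1.01 (0.63 to 1.39, 0.67 over all 201). Zfp36, whose protein tristetraprolin promotes decay of cytokine mRNAs, was at 1205 CPM on ND and 1153 on HFD in WT and 1759.9 and 2561 in SP (ratio 1.15, interval 0.75 to 1.57, 0.75 over all 201). Ppp1r15a (GADD34), a stress-induced phosphatase subunit, was at 352 CPM on ND and 277 on HFD in WT and 578 and 843 in SP (ratio 1.61, interval 0.81 to 2.46, 0.69 over all 201). All 3 were past 2-fold only in the single-type set. Of 20 genes on the NF-κB list, 6 could be compared there (at least 50 UMIs over both libraries and 100 CPM in 1 of them), and 2 were past 2-fold higher and 0 lower, with a median log2 ratio of 0.52 against 0.09 over all genes compared, 2.49% of which were higher. Without the specific granule barcodes Nfkbia was at 0.79, within 2-fold, which left 1 of 6 higher (Zfp36, median 0.35 against 0.06, with 2.05% of all genes higher). Nfkbia was also within 2-fold, at 0.83, without the 1 SP-HFD barcode that held 23 of its 172 UMIs. Over all 201 barcodes 0 of 7 were past 2-fold, and the median was -0.20 against -0.11, so the sign of the list's median turned with the mixed and deep barcodes. In the other 3 comparisons 0 members were past 2-fold in either set. Tnfaip3 (A20) was at 335 CPM on ND and 277 on HFD in WT and 302 and 515 in SP. Nfkbiz, also on the list, went the other way on HFD. Its mean per single-type barcode was 11.2 UMIs per 10000 in WT-HFD and 7.81 in SP-HFD, with a UMI in 15 of 31 and 17 of 44. Nfkbia had a UMI in 14 of 31 and 21 of 44.

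**Figure D4:**
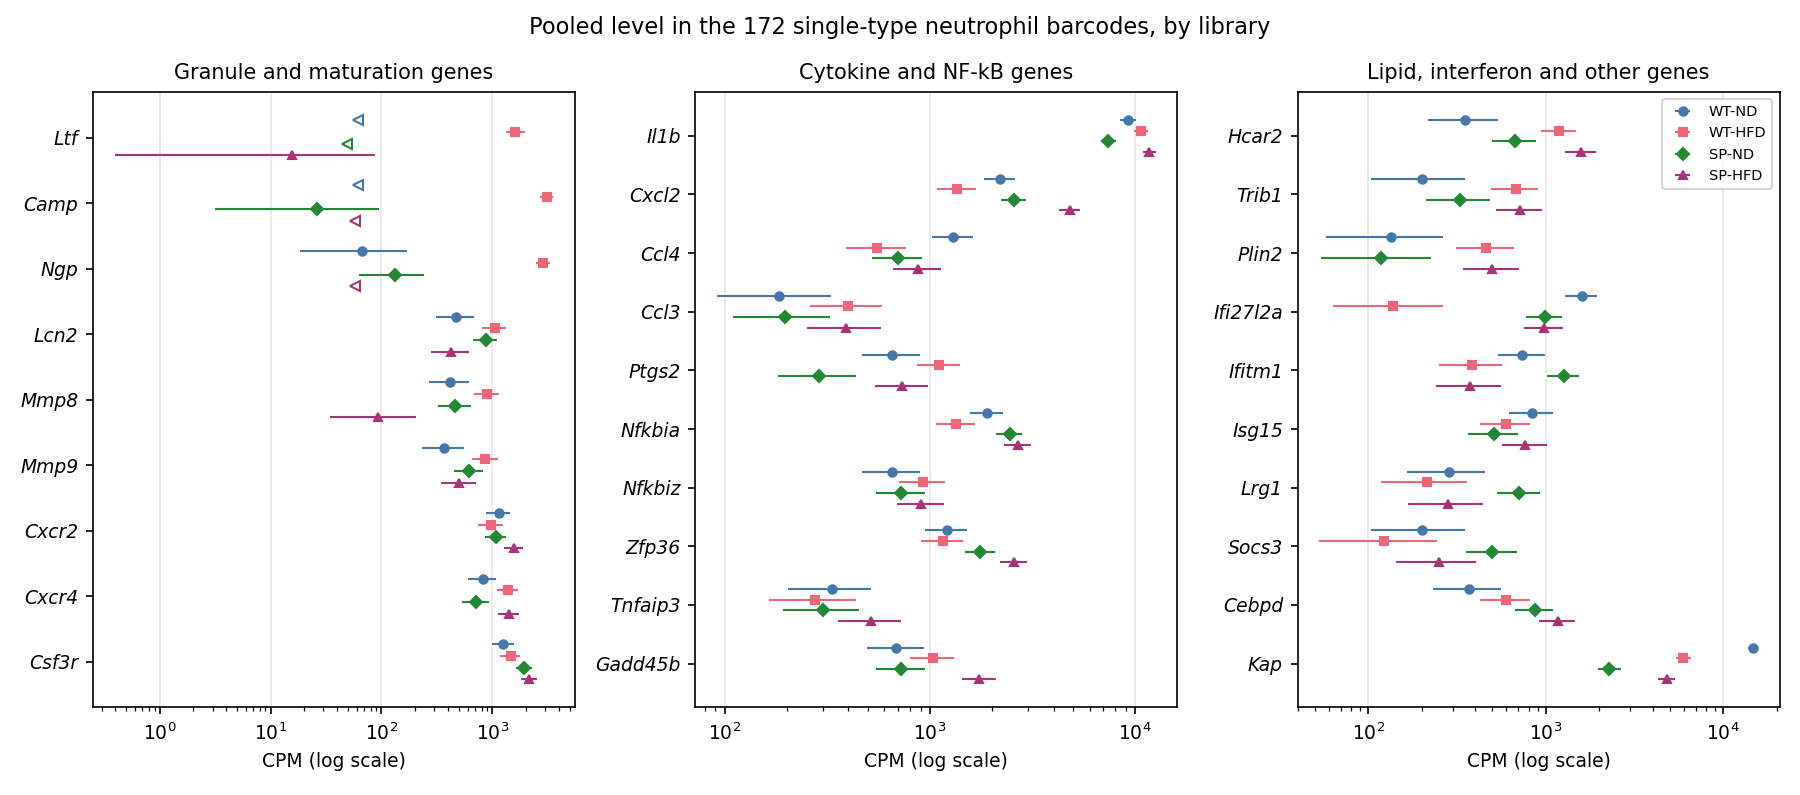
Pooled level of 29 genes in the 172 single-type neutrophils by library, in CPM on a log axis, with exact Poisson 95% intervals as bars and an open triangle at the upper limit where a library has 0 UMIs. Hcar2, Trib1 and Plin2 are higher in both HFD libraries, Cxcl2 is highest in SP-HFD and Ifi27l2a lowest in WT-HFD.

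The diet comparisons share no library between WT and SP, so they can be set side by side. In WT, 556 genes were compared over all neutrophils: 36 were past 2-fold higher on HFD (6.47%) and 43 lower (7.73%), and in 27 of these 79 a single barcode gave at least 50% of the UMIs in the higher library. In SP, 541 genes gave 48 higher (8.87%) and 46 lower (8.50%), 23 of them with such a barcode. Leaving mixed or deep barcodes out gave 21 higher (7.14%) and 13 lower (4.42%) of 294 in WT, and 12 higher (3.45%) and 8 lower (2.30%) of 348 in SP. Without the specific granule barcodes as well, there were 11 higher and 11 lower of 270 in WT (4.07% each) and 8 higher (2.36%) and 9 lower (2.65%) of 339 in SP. When the 1 barcode with the most UMIs of a gene was left out of the library where that gene was higher, a setting also added after seeing the data, 11 of the 21 and 2 of the 13 single-type calls in WT and 7 of the 12 and 5 of the 8 in SP came within 2-fold. These are counts of size, with no test. In either set the SP calls higher on HFD, and so their shares, include G0s2, a rule gene whose value is a description only. The split between higher and lower calls depends on scaling: without mitochondrial and rule genes in the total the SP split was 24 to 77 over all neutrophils and 5 to 11 in the single-type set, and centring on the median gene gave 8 to 11 in the latter and 15 to 16 in WT.

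Hcar2 and Trib1 were the genes past 2-fold higher on HFD in both genotypes in the single-type set, and no gene was past 2-fold lower in both. Hcar2 encodes the receptor for niacin and the ketone body β-hydroxybutyrate. It was at 352 CPM on ND and 1184 on HFD in WT and 669.8 and 1577 in SP, in 15 of 49, 23 of 31, 23 of 48 and 29 of 44 barcodes, and its diet ratio was 1.75 (1.04 to 2.52, 1.40 over all 201) in WT and 1.24 (0.74 to 1.75, 1.04 over all 201) in SP. In SP-HFD 1 barcode held 21 of the 101 single-type UMIs, and without it the SP ratio was 0.93 (0.74 over all 201), within 2-fold. Without the top WT-HFD barcode, which held 9 of 77, the WT ratio was 1.62. After thinning it was in 31.6, 62.2, 37.3 and 51.1% of the neutrophils with at least 1000 UMIs (38, 37, 51 and 45), against at most 1.73% of macrophages and 0% of T and B cells. Unthinned, it was in 18 of 58, 28 of 38, 26 of 57 and 32 of 48. Trib1, a pseudokinase that directs degradation of C/EBP proteins, was at 201 CPM on ND and 676 on HFD in WT and 328 and 718 in SP, with ratios of 1.75 (0.81 to 2.81, 1.50 over all 201) in WT and 1.13 (0.40 to 1.89, 0.54 over all 201) in SP. Without the top barcode of the HFD library the ratios of Trib1 were 1.59 and 1.03. For Trib1 in SP the value over all 201 barcodes was within 2-fold and its interval held 0. Without the specific granule barcodes the ratios were 1.89 and 1.16 for Hcar2 and 1.68 and 1.05 for Trib1, which in WT then had 36 and 12 UMIs, under the minimum of 50 for a call.

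Plin2, encoding the lipid droplet coat protein perilipin 2, showed the same order at lower counts. It was at 134 CPM on ND and 461 on HFD in WT and 118 and 499.6 in SP, in 5, 15, 3 and 14 single-type barcodes, with a diet ratio of 1.78 (0.63 to 3.12, 1.84 over all 201) in WT and 2.08 (0.98 to 3.33, 1.69 over all 201) in SP. With 38 and 41 UMIs per pair of libraries it lay under the minimum for a call in that set. Of its 9 UMIs in SP-ND 7 came from 1 barcode, and when every mixed barcode was left out of the 201 its SP ratio was -0.12, on 2 and 7 UMIs. Hilpda, whose product inhibits lipolysis at the droplet, had 0, 13, 0 and 10 UMIs over all neutrophils, at least 3.41-fold higher on HFD in WT and at least 3.6-fold in SP. Only Plin2 of the 20 lipid handling genes reached the minimum in the WT comparison over all neutrophils, and no member did in SP. Cd36 and Lpl had at most 8 UMIs in any single-type set.

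**Figure D5:**
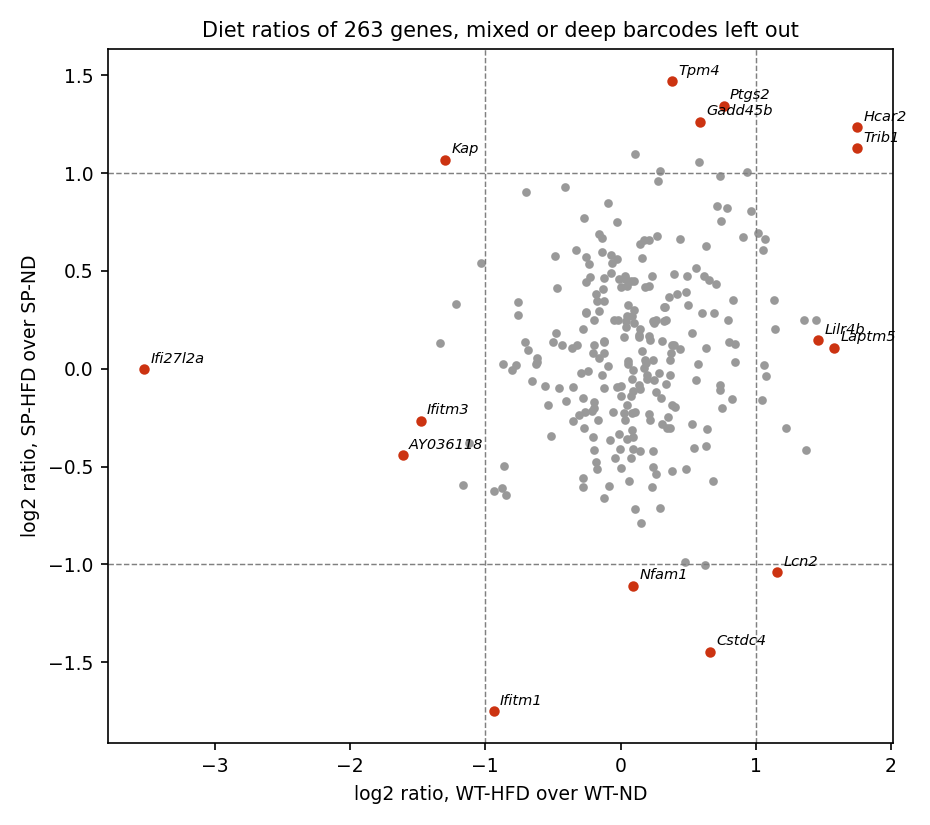
Log2 ratio of HFD over ND in WT (x) against SP (y) for 263 genes (the 5 rule genes and 258 others) compared in both genotypes over the single-type neutrophils, mitochondrial genes left out. Dashed lines mark 2-fold and 15 genes are named. Hcar2 and Trib1 are alone beyond 2-fold higher on both axes, and Lcn2 and Kap lie past 2-fold in opposite directions, Lcn2 through the 2 specific granule barcodes of WT-HFD.

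Other genes higher in WT-HFD than in WT-ND were Laptm5, a lysosomal membrane protein of haematopoietic cells (1.58, interval 0.75 to 2.49, 1.09 over all 201), Lilr4b, a leukocyte immunoglobulin-like receptor (1.46, interval 0.62 to 2.38, 1.34 over all 201), Slc7a11, the cystine importer (1.36, interval 0.58 to 2.20, 1.03 over all 201, but -0.50 on 8 and 4 UMIs when every mixed barcode was left out), Kctd12 (1.37, interval 0.55 to 2.27, 0.58 over all 201), Il1r2 (1.13, interval 0.58 to 1.71, 1.08 over all 201) and Trem1, an amplifying receptor of neutrophils and monocytes (1.07, interval 0.30 to 1.88, 0.68 over all 201). Of 9 neutrophil markers outside the rule that could be compared, 4 were past 2-fold higher and 0 lower in WT-HFD (median 0.63 against 0.09 for all genes compared), and 2 and 0 of 9 over all 201 (median 0.49 against 0.05), where 7.14 and 6.47% of all genes were higher. Without the specific granule barcodes 2 of 8 were higher (Il1r2 and Trem1, median 0.49 against 0.15, with 4.07% of all genes higher), and Trem1 was at 0.96 without its top WT-HFD barcode. In SP the same list had 0 higher and 1 lower of 10 (median 0.24 against 0.06), and 1 and 2 of 10 over all 201. The shares of all genes there were 3.45% higher and 2.30% lower, and 8.87 and 8.50% over all 201. For genotype on ND it had 0 of 9 past 2-fold, and over all 201 2 of 9 higher (Lcn2 and Wfdc21, with 4.83% of all genes higher). For genotype on HFD it had 0 higher and 1 lower of 9 (Lcn2, with 2.49% of all genes lower), and over all 201 1 higher and 1 lower of 10 (Slpi and Lcn2, with 2.30% higher and 5.84% lower). Several of the calls over all 201 came within 2-fold without the top barcode of the higher library. They were Il1r2 and Lcn2 for diet in WT, Slpi for diet in SP, Wfdc21 for genotype on ND, and Slpi and Lcn2 for genotype on HFD. The plasma cell barcode of 18605 UMIs in SP-HFD held 45 UMIs of Slpi. In SP, Ptgs2, the inducible cyclooxygenase, was higher on HFD (1.34, interval 0.59 to 2.15, 1.20 over all 201) from a low in SP-ND, at 653 CPM on ND and 1107 on HFD in WT and 289 and 734 in SP. Gadd45b, a stress-inducible gene, was at 686 CPM on ND and 1030.0 on HFD in WT and 722 and 1733 in SP (SP ratio 1.26, interval 0.78 to 1.76, 1.11 over all 201), and Tpm4, a tropomyosin, had a ratio of 1.47 (0.56 to 2.45, 1.42 over all 201).

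Over all 201 neutrophils the highest WT diet ratios were those of genes held by 1 or 2 barcodes. Camp, Ngp and Ltf came from the 2 specific granule barcodes. Cdkn1c, Nupr1 and Podxl had 98.0 to 100% of their WT-HFD UMIs in 1 barcode, the podocyte-mixed one of 15614 UMIs. The heat shock genes Hspa1a and Hspa1b (111 and 119 UMIs against 13 and 17) had 73.0 and 84.0% in 1 barcode, and were at 4 UMIs each once such barcodes were out. In SP the leading genes were Igkc, Jchain and Igha, with 98.4 to 99.6% of their UMIs in the plasma cell barcode, and the lowest ratio was that of Ren1, at 2 UMIs in SP-HFD and 265 in SP-ND, 97.4% of them in 1 barcode. Igkc stayed at 35 UMIs in 20 single-type SP-HFD neutrophils against 1 in SP-ND, beside a whole-library B and plasma cell list of 92.1 and 1.02 UMIs per 10000.

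Interferon-stimulated genes differed by member. Ifi27l2a, an interferon-induced mitochondrial protein gene, was at 1590.2 CPM on ND and 138 on HFD in WT and 985 and 984 in SP, lowest in WT-HFD. It had a UMI in 23 of 49 single-type barcodes on ND and 5 of 31 on HFD in WT, and in 19 of 48 and 10 of 44 in SP, where 1 SP-HFD barcode held 25 of 63 UMIs. Without the top barcode of each library, a setting added after seeing the data, the levels were 1169 and 95.4 CPM in WT and 875 and 606 in SP. Its WT diet ratio was -3.52 (-4.70 to -2.54, -2.54 over all 201), and SP-HFD exceeded WT-HFD by 2.83 (1.81 to 4.02, 1.48 over all 201), or -3.61 and 2.67 without those top barcodes. Macrophages of the same libraries were at 1320.0 CPM on ND and 843 on HFD in WT and 874 and 1127 in SP and also lowest in WT-HFD. Ifitm3, a restriction factor of virus entry, was at 770.0 CPM on ND and 277 on HFD in WT and 525 and 437 in SP (WT ratio -1.48, interval -2.35 to -0.66, -0.82 over all 201). Ifitm1 was highest in SP-ND at 737 CPM on ND and 384 on HFD in WT and 1261 and 375 in SP, with a diet ratio in SP of -1.75 (-2.46 to -1.09, -1.95 over all 201). Isg15 was at 837 CPM on ND and 599.6 on HFD in WT and 512 and 765 in SP, with no pair past 2-fold. Of the 30 interferon genes, 6 could be compared for diet in WT, with 0 past 2-fold higher and 2 lower (median -0.82 against 0.09), and 0 and 2 of 7 over all 201 (median -0.78 against 0.05), where 4.42 and 7.73% of all genes were lower. In SP 7 could be compared, with 0 higher and 1 lower in either set (median -0.27 against 0.06 in the single-type set), where 2.30 and 8.50% of all genes were lower. Genotype gave 0 of 7 on ND in either set, and on HFD Ifi27l2a was the 1 higher, of 4 in the single-type set and of 7 over all 201, where 2.49 and 2.30% of all genes were higher. Over all 201, Ifi27l2a for genotype on HFD and Ifitm1 for diet in WT came within 2-fold without the top barcode of the higher library.

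Genotype on ND was compared over 518 genes in all neutrophils, with 25 past 2-fold higher in SP-ND (4.83%) and 57 lower (11.0%), and over 330 in the single-type set, with 17 higher (5.15%) and 8 lower (2.42%), or 17 (5.23%) and 7 (2.15%) of 325 without the specific granule barcode. Scaling without mitochondrial and rule genes changed the former split to 35 to 44, and centring the latter to 8 to 11. Tubule genes led the lower ones in the single-type set, as Kap, Cyp4b1 and Acsm2 did. Over all 201 the lower ones were led by the antigen presentation genes Cd74, H2-Aa, H2-Eb1 and H2-Ab1, ahead of Kap and Cyp4b1. Among those higher in SP-ND, Socs3, a feedback inhibitor of the G-CSF receptor, was at 201 CPM on ND and 123 on HFD in WT and 499 and 249.8 in SP (ratio 1.31, interval 0.35 to 2.38, 1.29 over all 201), Lrg1, a secreted glycoprotein, at 285 CPM on ND and 215 on HFD in WT and 709 and 281 in SP (1.32, interval 0.51 to 2.20, 1.37 over all 201), and Cebpd, a C/EBP transcription factor, at 368 CPM on ND and 599.6 on HFD in WT and 867 and 1171 in SP (1.24, interval 0.52 to 2.00, 1.38 over all 201). Klf3 (1.14, interval 0.42 to 1.92, 1.23 over all 201) and the glycolytic enzyme gene Pkm (1.09, interval 0.17 to 2.09, 1.51 over all 201) were also higher. Ptgs2 was lower in SP-ND (-1.18, interval -2.0 to -0.39, -1.47 over all 201), or at -0.57 without the WT-ND barcode that held 14 of its 39 UMIs. Leaving out such top barcodes brought 5 of those 17 and 3 of those 8 genes within 2-fold, and 11 of the 25 and 27 of the 57 over all 201.

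Socs3 and Lrg1 were higher in SP-ND than in each of the other 3 libraries. Their diet ratios in SP were -1.0 (-1.94 to -0.12, -1.28 over all 201) and -1.34 (-2.19 to -0.54, -1.48 over all 201). Also lower in SP-HFD than in SP-ND were Cstdc4, a stefin-type protease inhibitor gene (-1.45, interval -2.23 to -0.72, -1.62 over all 201, but 0.31 on 5 and 13 UMIs when every mixed barcode was left out), Nfam1, an immunoreceptor adaptor (-1.11, interval -2.04 to -0.24, -1.18 over all 201), Klf3 (-1.0, interval -1.72 to -0.32, -0.97 over all 201) and Wfdc21, a secretory protein gene of neutrophils (-0.99, interval -1.61 to -0.39, -1.59 over all 201, and -0.60 without the specific granule barcode). Without the top SP-ND barcode the values were -0.96 for Cstdc4, -0.9956 for Nfam1, -0.90 for Klf3 and -0.74 for Socs3, while Lrg1 was at -1.24. Csf3r, a gene of the rule, is given as a description at 1255 CPM on ND and 1460.5 on HFD in WT and 1944 and 2155 in SP.

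Genotype on HFD was compared over 565 genes in all neutrophils, with 13 past 2-fold higher in SP-HFD (2.30%) and 33 lower (5.84%), and over 321 in the single-type set, with 8 higher (2.49%) and 8 lower (2.49%). The single-type split was 6 to 11 without mitochondrial and rule genes in the total and also when centred, and that over all neutrophils was 9 to 46 without those genes. Over all 201, 7 of the 13 and 26 of the 33 came within 2-fold without the top barcode of the higher library. Mitochondrial genes were among the 26, and mitochondrial UMIs made up 15.1% of the WT-HFD pool and 6.46% of the SP-HFD pool. Besides Cxcl2, Ifi27l2a, Zfp36, Nfkbia and Ppp1r15a, higher genes were Cdk2ap2, a regulator of cell cycle kinase (1.21, interval 0.72 to 1.73, 1.06 over all 201, but -1.22 on 5 and 20 UMIs when every mixed barcode was left out), and Hspa8, the constitutive HSC70 chaperone (1.05, interval 0.32 to 1.82, 0.19 over all 201), which was within 2-fold over all 201 and, at 0.96, without the specific granule barcodes. Umod, a thick limb gene, was higher in this set and turned sign over all 201, with 1.22 (0.36 to 2.13, -0.83 over all 201). Cebpd had 0.97 (0.39 to 1.56, 1.02 over all 201), close to 2-fold in this set. The lower genes were led by Camp, Ngp and Ltf, whose WT-HFD UMIs came from 2 barcodes, then Mmp8, Dbi, an acyl-CoA binding protein gene, Lcn2 (-1.31, interval -2.01 to -0.65, -1.41 over all 201), Cstdc4 (-1.01, interval -1.84 to -0.23, -0.91 over all 201) and Nr4a1, an immediate early nuclear receptor (-1.0, interval -1.70 to -0.34, -1.30 over all 201). Without the specific granule barcodes there were 6 higher (2.05%) and 3 lower (1.03%) of 292, Lcn2, Cstdc4 and Dbi had too few UMIs for a call (27 and 11, 21 and 17, and 14 and 35 in SP-HFD and WT-HFD), at 1.104, 0.11 and -1.51, and Nr4a1 was at -1.03. Without the top barcode of the higher library 2 of the 8 higher genes came within 2-fold (Nfkbia and Hspa8) and 4 of the 8 lower ones, which were Dbi at -0.95, Nr4a1 at -0.79, Lcn2 at -0.15 and Cstdc4, which turned to 0.24 as 26 of its 43 WT-HFD UMIs lay in 1 barcode. No gene was past 2-fold in the same direction in both genotype comparisons in the single-type set. Over all 201, Cebpd was higher in both and Dbi lower in both, but on HFD both were within 2-fold without the top barcode (0.87 and -0.95).

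Migration genes were past 2-fold in few comparisons. Cxcr2 was at 1138 CPM on ND and 969 on HFD in WT and 1077 and 1561 in SP, Cxcr4 at 820.2 CPM on ND and 1368 on HFD in WT and 709 and 1405 in SP and Ccrl2, a chemerin-binding receptor, at 2059 CPM on ND and 1876 on HFD in WT and 1970.1 and 2982 in SP. Of 16 genes on the list, 1 of 8 compared was past 2-fold in WT for diet (the integrin gene Itgam, higher, with 7.14% of all genes higher), which without the specific granule barcodes was at 0.83, and 0 of 9 for diet in SP, 0 of 7 for genotype on ND and 0 of 9 for genotype on HFD. Over all 201 there were 0 in each of the 4. Recognition receptors gave 1 of 6 for diet in WT (Trem1, higher, with 7.14% of all genes higher) and 0 in the other 3 comparisons, and 0 in all 4 over all 201, with Tlr2 and Tlr4 at 2 to 14 and 1 to 7 UMIs. The oxidase and lipid mediator list gave Ptgs2 alone, 1 of 6 higher for diet in SP (3.45% of all genes) and 1 of 5 lower for genotype on ND (2.42%), and 1 of 7 and 1 of 6 over all 201 (8.87 and 11.0%). Its NADPH oxidase subunit gene Cyba (803 CPM on ND and 753 on HFD in WT and 867 and 874 in SP) differed by under 2-fold throughout.

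Of the lists for survival and growth factors, immediate early genes, transcription factors and glycolysis, at most 1 member each was past 2-fold in any comparison of the single-type set, each of them higher. For diet in WT it was Jund, 1 of 9 immediate early genes compared (7.14% of all genes higher), at 0.97 without its top barcode, and for diet in SP Gadd45b, 1 of 4 survival and growth factor genes (3.45%). For genotype on ND they were Socs3, 1 of 3 of the latter list, Cebpd, 1 of 4 transcription factors, and Pkm, 1 of 3 glycolytic genes (5.15%). Over all 201 the calls differed. Diet in WT gave Jun, 1 of 13, and Pkm, 1 of 4, as higher (6.47% of all genes), with 42 of 61 WT-HFD UMIs of Jun in 1 barcode. Diet in SP gave Gadd45b higher and Socs3 lower, of 4, and Egr1, 1 of 12, higher (8.87% higher and 8.50% lower), with 19 of 38 SP-HFD UMIs of Egr1 in 1 barcode. Genotype on ND gave Socs3, 1 of 3, Cebpd, 1 of 4, and Pkm, 1 of 5, as higher (4.83%), and genotype on HFD Cebpd, 1 of 4 (2.30%). Of these calls over all 201, Jun, Gadd45b, Egr1 and, on HFD, Cebpd came within 2-fold without the top barcode of the higher library. Mcl1, a survival factor that neutrophils depend on, was at 2461 CPM on ND and 2198 on HFD in WT and 2482 and 3045 in SP, and Cebpb, the leading transcription factor, at 3566 CPM on ND and 4243 on HFD in WT and 3822 and 4497 in SP. The 12 genes of methionine metabolism and H3K27 methylation were mostly too sparse to compare: Kdm6b, an H3K27 demethylase, was the one gene with enough UMIs, at 469 CPM on ND and 615 on HFD in WT and 459.7 and 499.6 in SP, with no pair past 2-fold, and Ezh2 and Ahcy were at 0 in all 4 single-type sets. Mat2a, the enzyme making S-adenosylmethionine, had 0, 3, 1 and 2 UMIs, which is too few for a difference to be detectable at this depth.

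Beside the other leukocytes of the same libraries, lists differed in how many members were higher in neutrophils in all 4 libraries. Of 3839 genes with enough UMIs for a ratio to macrophages in each library, 32.1% were higher in all 4 and 28.4% lower, and of 4216 with a ratio to monocyte-type barcodes 26.7% were higher and 41.4% lower. Among cytokine and chemokine genes 7 of 14 were higher than in macrophages and 2 lower, and 9 of 12 were higher than in monocyte-type barcodes and 0 lower. Among NF-κB genes 6 of 13 were higher and 0 lower, and 8 of 14 and 3, in the same order. Among recognition receptors 13 of 19 were higher than in macrophages and 2 lower, and 19 of 19 were higher than in monocyte-type barcodes. Il1b was above macrophages by 2.43 to 3.85 and above monocyte-type barcodes by 4.54 to 5.6 on the log2 scale, Clec4e, a C-type lectin receptor, by 6.33 to 10.31 and 4.10 to 6.08, and Cxcr4 by 3.38 to 3.75 and 2.90 to 3.54. All 11 heat shock genes were lower in neutrophils than in either class in each of the 4 libraries, with Hsp90ab1 at -3.91 to -2.26 against macrophages. Between libraries of single-type neutrophils Hspa8 was the one heat shock gene past 2-fold, lower in WT-HFD than in WT-ND (the 1 gene compared, with 4.42% of all genes lower) and than in SP-HFD (1 of 2, with 2.49% higher in SP-HFD), and within 2-fold of both without the specific granule barcodes, and at -0.89 and 0.93 without its top barcode. Over all 201, Hspa1a and Hspa1b were higher in WT-HFD than in WT-ND (2 of 7 compared, with 6.47% of all genes higher) and lower in SP-HFD than in WT-HFD (2 of 7, with 5.84% lower), Hsp90aa1 was lower in SP-ND than in WT-ND (1 of 4, with 11.0% lower), and 0 of 5 were past 2-fold for diet in SP. Without the top barcode of the higher library, Hsp90aa1 and both WT diet calls came within 2-fold, as did Hspa1b for genotype on HFD. Of 13 cell cycle genes, 1 was abundant enough to compare, and it was within 2-fold in each comparison and set. These ranges over 4 libraries describe cells chosen by their expression, and the median neutrophil held fewer UMIs than the median barcode of either class in each library.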

How the data were processed

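The deposited files are Cell Ranger UMI counts per gene and barcode (32285 genes), made by the authors from 10x libraries, with version 6.1.2 in the file headers and 2.1.1 and build mm10 in the submitters' processing notes. Every deposited barcode has at least 500 UMIs. Barcodes with 200 to 5000 genes and under 50% mitochondrial UMIs were kept, then selected on the rule genes. Members and gene lists were chosen with earlier results of these data known. UMIs were summed per library over neutrophils and scaled to CPM. Genes with at least 50 UMIs over both libraries and 100 CPM in either were compared, and a difference past 2-fold was called. Intervals were exact (95%, Clopper-Pearson, Poisson or conditional binomial). A library at 0 was set to 3 counts for a bound. No model was fitted, as each group holds 1 library.

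Of 268 symbols on 18 lists, 266 were matched. Genes were named by a written rule: the rule genes, the 4 most abundant members of each list and members past 2-fold, the 10 highest and 10 lowest ratios of each comparison, genes past 2-fold in both diet or both genotype comparisons, and the 30 most abundant genes. Genes outside it, chosen after their values were seen, are those named for 0 or few UMIs, and those named only for the single-type set. Some genes that the rule names are not reported here. Doublets were not removed from the main values. A simulated-doublet score marked 6, 6, 7 and 4 neutrophils, left out in an alternative. Alternatives changed the limits of the rule, depth, mixed barcodes, scaling, filters, ambient RNA and the fold. Steps were tested on simulated data. Counts for the intervals and calls were drawn independently per gene, without barcodes. They cannot show how intervals and calls hold where 1 barcode leads a gene. Tools were scikit-learn 1.9.0, pandas 2.3.3, scipy 1.17.1 and numpy 2.4.6 under Python 3.11.15.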

Additional observations from a re-analysis of the deposited data

Results flagged for a closer look

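Barcodes that met the marker limits but had 50% or more mitochondrial UMIs, and so entered no comparison, numbered 2 in WT-HFD and 4 in SP-ND, above the 1 in WT-ND.

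For 5 genes the diet ratio over all 201 neutrophils was past 2-fold in opposite directions in WT and SP, and the difference between the genotypes was not tested. On the log2 scale Lcn2 was at 1.22 in WT and -1.68 in SP, Camp at 5.72 and -4.33, Ngp at 5.20 and -4.81, Slc12a1, the thick limb cotransporter, at 1.96 and -3.54, and Umod (uromodulin) at 1.86 and -1.69. Where a library held 0 UMIs of Camp or Ngp it was set to 3 counts, so those values are bounds. Likewise, for 5 of the genes reported here the genotype ratio had opposite directions on ND and HFD, again with no test of the difference. Lcn2 was at 1.49 on ND and -1.41 on HFD, Camp at 4.14 and -5.90, Ngp at 4.21 and -5.80, Slc12a1 at 2.82 and -2.67, and Atp1b1, a sodium pump gene, at 1.60 and -1.47. Over all 201, 1 barcode held 71.6% of the thick limb list UMIs in WT-HFD and 1 held 59.6% in SP-ND. Without the top barcode of the higher library, Slc12a1, Umod and Lcn2 came within 2-fold for diet in WT, and Umod and Camp for diet in SP. For genotype, Atp1b1 and Camp did so on ND, and Atp1b1, Slc12a1 and Lcn2 on HFD. In the single-type neutrophils Lcn2 alone of the diet genes was compared in both genotypes, at 1.16 in WT and -1.04 in SP. Camp, Ngp and, in WT-HFD, most of Lcn2 came from barcodes with 10 or more UMIs of Camp, Ngp and Ltf, 2 in WT-HFD and 2 in SP-ND. Without these the WT diet ratio of Lcn2 in single-type neutrophils was -1.26, on 11 UMIs in WT-HFD and 28 in WT-ND, too few for a call.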

How the results depend on the processing

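No paired analysis was possible because each group holds 1 sample. The cause of the changes was not tested. With under 30% mitochondrial UMIs the shares were 0.770, 0.559, 1.20 and 0.935%, in the same order of libraries. With at least 1000 UMIs WT-ND had 0.220 neutrophils per macrophage and a median of 1467 UMIs. Leaving out every mixed barcode, tubule RNA included, kept 7, 8, 18 and 7 neutrophils, with shares of 0.0644, 0.0825, 0.267 and 0.0938%, 0.0389, 0.0386, 0.107 and 0.0248 per macrophage, and medians of 811 UMIs in WT-ND and 1734 in WT-HFD. That setting also turned the sign of 5 ratios, on at most 20 UMIs a library: Slc7a11 in WT (-0.50), Plin2, Cstdc4 and Lcn2 for diet in SP (-0.12, 0.31 and 1.31), and Cdk2ap2 for genotype on HFD (-1.22). Where a library fell to 0 UMIs and the floor of 3 counts gave no direction, as for Lcn2 and Ngp for genotype on ND, no value is given. Counts of genes past 2-fold, as higher and lower, moved under several settings. Without all mixed barcodes they were 8 and 3 for diet in WT, 6 and 5 for diet in SP, 8 and 3 for genotype on ND and 3 and 8 for genotype on HFD. In the single-type set they were 21 and 13, 12 and 8, 17 and 8, and 8 and 8. At 20 UMIs with no CPM minimum they were 143 and 135, 160 and 131, 82 and 158, and 77 and 129. At 200 UMIs they were 5 and 4, 4 and 13, 2 and 2, and 4 and 14. At 1.5-fold they were 83 and 81, 100 and 99, 83 and 118, and 37 and 85. Without doublets the lower count was 22 in WT, 30 for genotype on ND, and 16 higher and 26 lower for diet in SP. Leaving out the top barcode of each gene as a planned setting, apart from the setting added later, gave 23 higher in WT and 28 in SP. Averaging over cells gave 27 and 29 for diet in SP and 21 lower for genotype on HFD, and CPM without mitochondrial and rule genes 24 and 77 for diet in SP, where it shifted the median gene by -0.28 on the log2 scale (0.16 for genotype on ND and -0.18 on HFD). The stricter S100 limit left 29 lower for diet in SP and 20 lower for genotype on HFD. Leaving out barcodes with 10 or more UMIs of Camp, Ngp and Ltf, chosen after seeing the data, turned Lcn2 for diet in WT (-0.23) and for genotype on HFD (0.047), and gave no value for the 3 genes that picked them. Leaving them out of the single-type set gave -1.26 and 1.104 for Lcn2, and counts of 11 and 11, 8 and 9, 17 and 7, and 6 and 3. Of 929 ratios of named genes under the planned settings, 847 stayed within their counting interval, 77 left it, and the 5 above turned. Leaving out every mixed barcode gave 30 of those that stayed, 32 of those that left and all 5 that turned. Of 194 ratios under the settings added after seeing the data, 153 stayed, 37 left and 4 turned. Depth limits the rest: 3 counts, the limit that a count of 0 allows, are 24.6 to 31.2 CPM over a library's neutrophils.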
